A study of Homo sapiens with 21 samples.

Results

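The E2F transcription factors and their DP dimer partners were followed in the RNA of Hs578T cells. The 10 genes (E2F1 to E2F8, TFDP1 and TFDP2) were taken by name from the 28395 genes of the count table, and all 10 were among the 16036 genes that passed the filter on low counts. The line was derived from a triple-negative breast tumour and has mesenchymal features. Cells were treated for 8 h and their polyA-selected RNA was sequenced in 7 groups of 3 replicates, 21 libraries in all. The control group received DMSO. Single treatments were THZ531, which blocks the transcriptional kinases CDK12 and CDK13, at 0.1 μM, lapatinib, an EGFR and HER2 inhibitor, at 3.16 μM, and nilotinib, an ABL inhibitor, at 1 μM. Each tyrosine kinase inhibitor was also combined with 0.1 μM THZ531 (the lapatinib combination and the nilotinib combination), and a last group received THZ531 alone at 1 μM. All groups are the same cell line, and the study describes the replicates as separate experiments, so p-values measure the spread between repeats within that line.

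E2F proteins bind DNA at the promoters of genes for DNA replication and the cell cycle. E2F1, E2F2 and E2F3 are activators, E2F4 and E2F5 act mostly as repressors together with the pocket proteins p107 and p130, and E2F6 represses through Polycomb-like complexes without pocket proteins. These E2Fs bind DNA as dimers with DP1 (TFDP1) or DP2 (TFDP2), whereas the atypical repressors E2F7 and E2F8 need no DP partner. Retinoblastoma protein holds the activators in check until cyclin-dependent kinases phosphorylate it at the end of G1. Several E2F genes are themselves targets of E2F, and E2F7 and E2F8 in turn repress E2F1.

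Literal matches to 4 E2F motifs of 7 bases were counted, on either strand, in RefSeq promoters of 300 bases in GRCh38.p14. The motifs were TTCCCGC, found in 6.55% of all promoters, then TTGGCGC, found in 3.04%, then TTCGCGC, found in 2.24%, and TTGCCGC, found in 2.39%. Promoters were listed for 8 of the 10 genes, and 6 of these (E2F1, E2F2, E2F3, E2F6, E2F7 and TFDP1) held at least 1 E2F motif. Of all 35116 promoters in the table, 13.0% held one. The 80 bases directly upstream of the start are printed for the 3 activator genes, whose transcripts moved apart under treatment, and bases 190 to 111 before the start for E2F7, the atypical E2F with the highest level. The E2F7 stretch lies further upstream, where its 2 motifs are. Capitals mark the E2F motifs, and all stretches read 5′ to 3′ along the gene.
E2F1 (chr20:33686386-33686465, minus strand): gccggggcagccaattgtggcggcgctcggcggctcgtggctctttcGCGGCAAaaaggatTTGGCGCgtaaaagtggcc
E2F2 (chr1:23531234-23531313, minus strand): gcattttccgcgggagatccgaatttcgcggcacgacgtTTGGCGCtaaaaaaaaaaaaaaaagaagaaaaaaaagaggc
E2F3 (chr6:20401799-20401878, plus strand): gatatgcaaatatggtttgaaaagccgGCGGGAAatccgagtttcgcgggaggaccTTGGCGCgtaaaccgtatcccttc
E2F7 (chr12:77065680-77065759, minus strand): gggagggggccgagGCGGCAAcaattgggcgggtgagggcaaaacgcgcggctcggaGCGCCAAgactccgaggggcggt

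All 4 printed promoters held the motif TTGGCGC, at bases -19 to -13 in E2F1, -41 to -35 in E2F2, -24 to -18 in E2F3 and, on the opposite strand, -133 to -127 in E2F7. For E2F3 this is the first of 2 listed promoters, and the second (chr6:20403364-20403663) held no E2F motif and no CHR element. The promoter of E2F4 and the 3 listed promoters of TFDP2 held none of the 4 motifs. Those of E2F6 and TFDP1, which are not printed, held TTCCCGC and TTCGCGC but not TTGGCGC. The CHR element, a 6-base motif (TTTGAA or TTCGAA) of cell cycle genes that peak late, was found in a promoter of E2F3 and TFDP2, and in 16.4% of all promoters. A match is a description of these letters and not a measured binding site.

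The libraries held 97612207 to 112229052 counts each, and replicates of a group correlated at 0.990 to 0.994 in log2 CPM (counts relative to the scaled library total). Markers of the labelled cell type were read in DMSO, where the mean level of the progesterone receptor PGR was 0 CPM, of the oestrogen receptor ESR1 0.364 CPM and of the mesenchymal VIM 6845 CPM, while the epithelial EPCAM (0.0364 CPM) and CDH1 (0.205 CPM) were nearly absent and KRT18 stood at 83.7 CPM. ERBB2, which encodes HER2, was at 37.5 CPM. The summed level of 4 epithelial markers (EPCAM, CDH1, KRT18 and KRT19) was 83.7 to 84.4 CPM in DMSO and 149 to 161 CPM in the lapatinib combination, and that of 4 mesenchymal markers (VIM, FN1, SPARC and CDH2) moved from 10930 to 12229 CPM to 15505 to 17624 CPM. Nearly all of the epithelial sum was KRT18, since EPCAM, CDH1 and KRT19 reached at most 0.0875, 0.368 and 0.0630 CPM in any library. The mesenchymal genes did not all move alike. FN1 had a mean of 1374 CPM in DMSO and 1328 CPM over all libraries, while the means of VIM, SPARC and CDH2 were higher over all libraries. The part of these marker shifts in the results was not tested. The counts of the 10 genes ran from 12 for E2F5 in a library of the lapatinib combination to 29524 for TFDP1 with 1 μM THZ531. Fewer cells of a kind and less RNA per cell cannot be told apart in such bulk libraries. The scaling (TMM) sets the typical gene to no change, so every change is relative to the other transcripts of the library.

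Ordered by level per kb of the longest annotated transcript, TFDP1 stood first in DMSO at 85.9 ± 2.97 CPM per kb (SD, n = 3). It was followed by E2F4 (19.1 ± 0.436), E2F1 (17.2 ± 1.10) and E2F7 (16.3 ± 0.997). E2F1 and E2F7 overlapped between libraries and did not differ beyond their spread. Lower levels per kb were found for E2F3 (6.18 ± 0.115), TFDP2 (4.73 ± 0.192), E2F6 (4.34 ± 0.208), E2F8 (3.17 ± 0.262) and E2F2 (2.85 ± 0.332), of which E2F8 and E2F2 overlapped. E2F5 was last at 0.405 ± 0.0439 CPM per kb. The order depends on the length chosen: TFDP1 was first with every length tried, but TFDP2, whose 24 annotated transcripts reach 9.88 kb, moved up to second place with the median mRNA length.

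None of the 10 genes passed the test with lapatinib, nilotinib or 0.1 μM THZ531 alone. Against DMSO, edgeR's quasi-likelihood test called 0 of 10 members with 0.1 μM THZ531, where 4.31% of all genes were called lower and 1.78% higher. It called 0 of 10 with lapatinib (0.0561% and 0.256% of all genes) and 0 of 10 with nilotinib (0.0998% and 0.243%). At an unadjusted p under 0.05, edgeR gave 1 member with THZ531 (E2F1), 0 with lapatinib and 1 with nilotinib (E2F8), and DESeq2 gave 1, 1 and 1, with 0 after adjustment in each. E2F1 with 0.1 μM THZ531 had a log2 FC of 0.27 (95% interval 0.06 to 0.48, edgeR adjusted p = 0.134), and passed only where the fit held no other groups (adjusted p = 0.0359). E2F8 with nilotinib had a log2 FC of -0.39 (-0.64 to -0.15, edgeR adjusted p = 0.173).

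In both combinations and at the higher dose of THZ531, 7 of the 10 transcripts fell strongly, whereas E2F1, TFDP1 and TFDP2 were not called lower with the main scaling and were called lower in the lapatinib combination when scaled to mitochondrial mRNAs. In the lapatinib combination the 7 genes E2F2 to E2F8 passed at an adjusted p under 0.05 with a log2 FC below -1, as did 21.3% of all genes tested (37.8% were called lower at any size), and 1 gene (TFDP2) was called higher, as were 34.3% of all genes. In the nilotinib combination the counts were again 7 lower and 1 higher (20.8% and 33.7% of all genes, with 37.3% lower at any size), and with 1 μM THZ531 they were 7 lower and 3 higher (18.9% and 33.1%, with 36.8% lower at any size). All 3 comparisons share the DMSO libraries. The median log2 FC of the 10 genes was -1.76, -1.66 and -1.62 in that order, where the median over all genes tested lay at -0.01 each time.

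**Figure D1:**
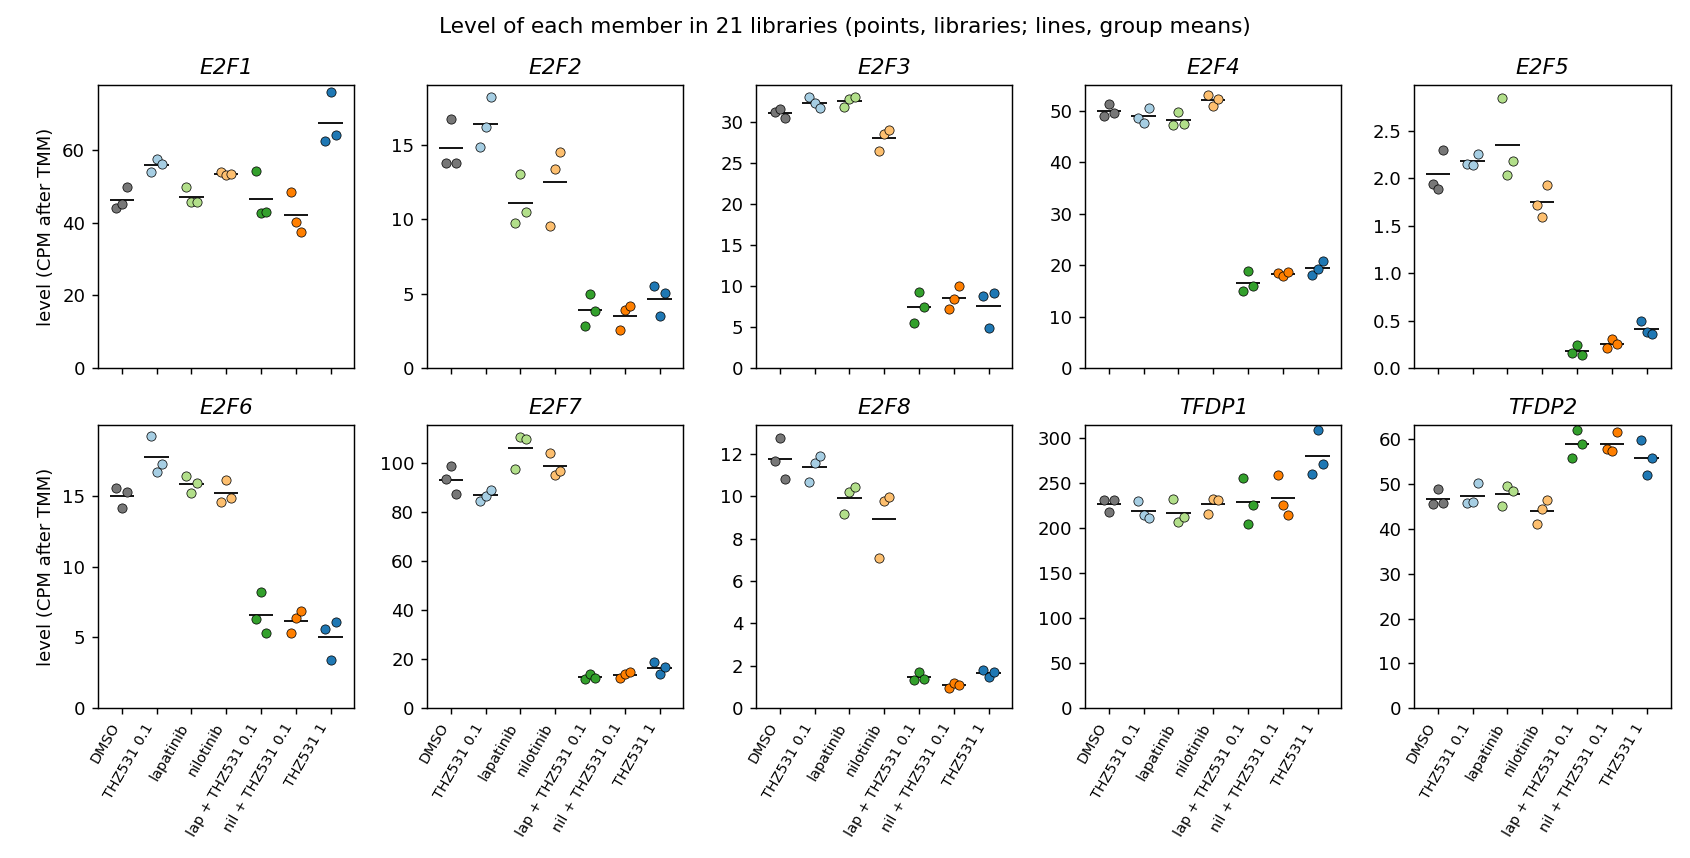
Level of each of the 10 genes (vertical axis, CPM after TMM scaling, from 0) in the 7 treatment groups, with THZ531 doses in μM and lap and nil for lapatinib and nilotinib. Points are libraries and lines are group means of 3; E2F2 to E2F8 sit far below DMSO in the 3 groups on the right, whereas E2F1, TFDP1 and TFDP2 do not.

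Among the activators, E2F1 and its relatives E2F2 and E2F3 moved apart. E2F1, the activator best known for driving both S-phase entry and apoptosis, was measured at 44.1, 45.2 and 49.7 CPM in the DMSO libraries and at 54.1, 42.7 and 43.0 CPM in the lapatinib combination. In the nilotinib combination it stood at 48.5, 40.2 and 37.4 CPM, and with 1 μM THZ531 at 62.3, 75.9 and 64.1 CPM. Both combinations overlapped with DMSO, while every library at the higher dose lay above every DMSO library. The log2 FC was 0.01 (95% interval -0.20 to 0.22) in the lapatinib combination and -0.14 (-0.35 to 0.07) in the nilotinib combination, neither of which passed. With 1 μM THZ531 E2F1 rose by a log2 FC of 0.54 ± 0.10 (SE, edgeR adjusted p = 8.27e-05), but with scaling to the 13 mitochondrially encoded mRNAs that change was 0.00 and did not pass.

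E2F2 and E2F3 fell in all 3 of these groups. E2F2 had 13.8, 16.8 and 13.8 CPM in DMSO and 2.84, 4.97 and 3.83 CPM in the lapatinib combination. In the nilotinib combination it had 2.54, 3.91 and 4.17 CPM, and with 1 μM THZ531 5.50, 3.48 and 5.05 CPM. No treated library reached the DMSO range. Its log2 FC was -1.93 ± 0.22, -2.06 ± 0.22 and -1.66 ± 0.21 (SE) in that order, with edgeR adjusted p-values of 1.09e-07, 4.99e-08 and 8.49e-07.

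E2F3, which also encodes a shorter isoform with a repressor role that these gene counts cannot separate, was tightly set in DMSO at 31.2, 31.6 and 30.5 CPM. It dropped to 5.50, 9.32 and 7.40 CPM in the lapatinib combination, to 7.18, 8.48 and 10.1 CPM in the nilotinib combination and to 8.80, 4.87 and 9.21 CPM with 1 μM THZ531. The groups did not overlap with DMSO, but the libraries of each treated group lay further apart than those of DMSO. This gave a log2 FC of -2.07 ± 0.19, -1.86 ± 0.18 and -2.03 ± 0.18 (edgeR adjusted p = 4.37e-09, 1.98e-08 and 7.51e-09).

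The pocket-bound repressors both fell, E2F5 furthest of the 10 genes in the lapatinib combination. E2F4, the most abundant E2F of resting cells, was at 49.1, 51.3 and 49.7 CPM in DMSO and at 15.1, 18.9 and 15.9 CPM in the lapatinib combination. Its values were 18.4, 17.8 and 18.6 CPM in the nilotinib combination and 18.2, 19.2 and 20.9 CPM with 1 μM THZ531, so that no group reached DMSO. The log2 FC was -1.59 ± 0.08, -1.45 ± 0.08 and -1.36 ± 0.08 (edgeR adjusted p = 3.52e-13, 1.31e-12 and 5.33e-12).

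E2F5 had the lowest counts, with 241, 219 and 270 in the DMSO libraries and 15, 22 and 12 in the lapatinib combination. The counts were 20, 28 and 23 in the nilotinib combination and 47, 36 and 34 with 1 μM THZ531. At this depth the fall was still larger than the spread between replicates, with a log2 FC of -3.50 ± 0.21, -2.98 ± 0.20 and -2.31 ± 0.18 (edgeR adjusted p = 8.35e-12, 4.76e-11 and 1.15e-09). E2F5 overlaps the protein-coding gene RBIS on the opposite strand, and the counting used no strand, so reads in the overlap cannot be told apart.

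E2F6, the repressor without pocket proteins, fell least of the 7 genes in both combinations. Its DMSO libraries had 15.5, 14.2 and 15.2 CPM, against 6.28, 8.21 and 5.28 CPM in the lapatinib combination. In the nilotinib combination it stood at 5.34, 6.40 and 6.83 CPM and with 1 μM THZ531 at 5.59, 3.40 and 6.12 CPM. All treated libraries lay below DMSO, and the second library at the higher dose was lowest. This gave a log2 FC of -1.18 ± 0.16, -1.27 ± 0.16 and -1.57 ± 0.17 (edgeR adjusted p = 1.88e-06, 7.9e-07 and 5.77e-08). Within its group, the second library at 1 μM THZ531 was also lowest for E2F2, E2F3, E2F7, E2F8 and TFDP2. It was highest for E2F1 and TFDP1 and in the middle for E2F4 and E2F5.

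The atypical repressors E2F7 and E2F8 both fell in all 3 groups. E2F7 was at 93.4, 98.7 and 87.3 CPM in DMSO and at 11.9, 13.9 and 12.2 CPM in the lapatinib combination. It was at 12.2, 13.9 and 14.8 CPM in the nilotinib combination and at 19.0, 13.8 and 17.0 CPM with 1 μM THZ531. The mean in the lapatinib combination was 13.6% of that in DMSO, and no treated library came near the controls. The log2 FC was -2.88 ± 0.11, -2.77 ± 0.10 and -2.49 ± 0.10 (edgeR adjusted p = 8.31e-15, 1.44e-14 and 1.24e-13).

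E2F8 was at 11.7, 12.8 and 10.8 CPM in DMSO, at 1.34, 1.71 and 1.40 CPM in the lapatinib combination and at 0.972, 1.20 and 1.09 CPM in the nilotinib combination. With 1 μM THZ531 it was at 1.78, 1.49 and 1.73 CPM, again without overlap with DMSO. Its log2 FC was -2.98 ± 0.13, -3.43 ± 0.14 and -2.81 ± 0.13 (edgeR adjusted p = 1.46e-13, 3.64e-14 and 6.32e-13). It fell furthest of the 10 genes in the nilotinib combination and at 1 μM THZ531. E2F8 overlaps CSRP3-AS1 on the opposite strand, where unstranded reads cannot be assigned.

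The DP partners did not follow the E2Fs that fell. TFDP1 was at 231.6, 217.7 and 230.9 CPM in DMSO and at 255.9, 204.8 and 225.5 CPM in the lapatinib combination, and the groups overlapped. The nilotinib combination (259.1, 225.9 and 214.6 CPM) overlapped as well, while the libraries at 1 μM THZ531 (260.0, 309.2 and 270.9 CPM) were all above DMSO. The log2 FC was 0.01 (95% interval -0.16 to 0.19) and 0.04 (-0.14 to 0.22) in the combinations, which did not pass, and 0.30 ± 0.08 at 1 μM THZ531 (edgeR adjusted p = 0.00339). The last change was 0.05 with library size alone and turned to -0.23 with mitochondrial scaling, and passed in neither.

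TFDP2 was at 45.5, 48.9 and 45.8 CPM in DMSO and at 55.9, 62.1 and 58.9 CPM in the lapatinib combination. It was at 57.8, 57.5 and 61.6 CPM in the nilotinib combination and at 59.7, 52.0 and 55.9 CPM with 1 μM THZ531, in each case above every DMSO library. The log2 FC was 0.34 ± 0.07, 0.33 ± 0.07 and 0.26 ± 0.07 (edgeR adjusted p = 0.00026, 0.000277 and 0.00292), but with mitochondrial scaling it turned to -0.35, -0.29 and -0.29, of which the first passed as lower. Its span also holds RPL19P6 and RNU6-425P, whose reads could be split from it or added to it.

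**Figure D2:**
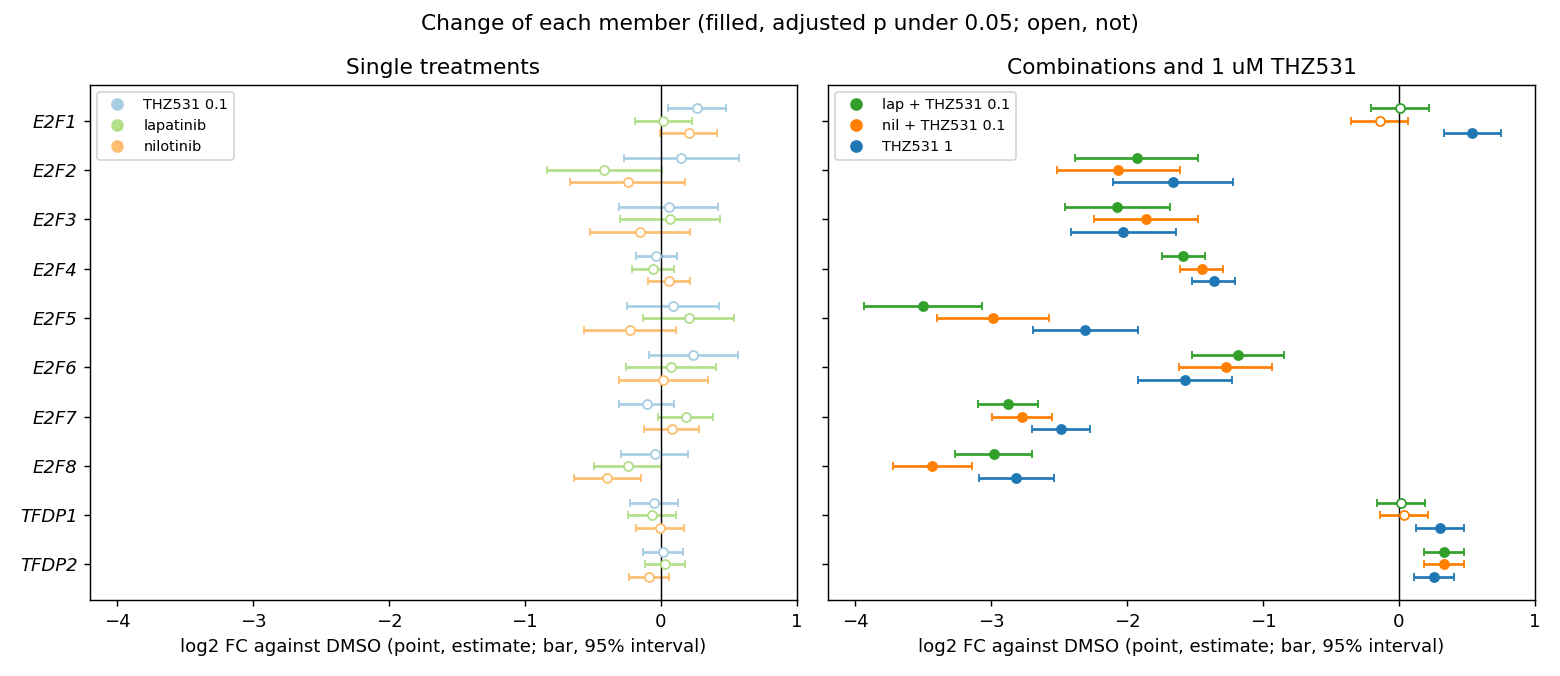
Log2 FC against DMSO (horizontal axis, points with 95% intervals) of the 10 genes with single treatments (left) and with the combinations and 1 μM THZ531 (right), with THZ531 doses in μM. Filled points passed at an adjusted p under 0.05; none is filled on the left, and on the right E2F2 to E2F8 lie between -3.50 and -1.18, while the small rises of E2F1, TFDP1 and TFDP2 disappear or turn with mitochondrial scaling.

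The 7 falls did not depend on the scaling. Over the 10 alternatives that kept all libraries, every one of these falls passed with a log2 FC below -1 in all 3 treatments, and the value nearest to 0 in the lapatinib combination was that of E2F6 (-1.03 with upper-quartile scaling). Mitochondrial scaling moved the median log2 FC of all genes to -0.69, -0.63 and -0.55 in the lapatinib combination, the nilotinib combination and 1 μM THZ531. Library size alone moved it to -0.34, -0.31 and -0.27, and upper-quartile scaling to 0.15, 0.13 and 0.19. With mitochondrial scaling the counts of members became 10 lower and 0 higher in the lapatinib combination, 9 and 0 in the nilotinib combination, and 7 and 0 with 1 μM THZ531. E2F1 and TFDP1 then had a log2 FC of -0.67 and -0.67 in the lapatinib combination, close to the median of all genes, and E2F7 one of -3.56.

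A measure that needs no scaling between libraries is the share of each E2F in the summed level per kb of E2F1 to E2F8 within a library. It was chosen after the values of the genes had been seen and is given as a description. The length used was that of the longest annotated transcript, and shares with other lengths were not computed. For E2F7 this length was 5.725 kb against a median mRNA length of 2.302 kb, and for E2F4 2.615 kb against 1.278 kb. E2F1 has 1 annotated transcript, of 2.69 kb. The size of each share therefore depends on the length chosen. In DMSO, E2F1 made up 24.0%, 23.7% and 26.7% of the E2F pool. In the lapatinib combination its share was 63.2%, 50.8% and 56.4%, in the nilotinib combination 58.2%, 51.8% and 48.4%, and with 1 μM THZ531 60.2%, 68.7% and 59.7%. All 9 of these libraries lay above the DMSO libraries and above the 9 libraries of single treatments at the lower doses, of which the highest had 29.4%.

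The atypical E2F7 and E2F8 together went the other way. Their share was 27.9% ± 1.5 (SD, n = 3) in DMSO, 8.59% ± 0.812 in the lapatinib combination, 9.09% ± 1.21 in the nilotinib combination and 8.45% ± 1.53 with 1 μM THZ531. The share of E2F4 and E2F5 moved less, from 28.1% ± 0.0447 to 21.1% ± 2.59, 23.9% ± 1.03 and 18.9% ± 1.17. E2F6 kept a similar share in DMSO (6.24% ± 0.421) and both combinations (6.25% ± 1.20 and 6.10% ± 0.986), and had 3.68% ± 1.12 with 1 μM THZ531. The summed level of the 8 genes was 69.6 ± 1.40 CPM per kb in DMSO, 30.5 ± 1.85 and 29.5 ± 1.25 in the combinations and 39.8 ± 1.33 with 1 μM THZ531.

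The ratio of counts of E2F1 to E2F7, a target and its repressor, also needs no scaling. It was 0.472, 0.459 and 0.570 in the DMSO libraries and 4.54, 3.07 and 3.53 in the lapatinib combination. Values of 3.98, 2.90 and 2.52 were found in the nilotinib combination and of 3.27, 5.49 and 3.78 with 1 μM THZ531. With the single treatments at the lower doses the ratio did not exceed 0.664, so the groups did not overlap. Both this ratio and the next rest on the fall of E2F7 given above, and are a description rather than a separate result. The ratio of TFDP1 to E2F7 moved from 2.44 ± 0.222 (SD, n = 3) in DMSO to 18.2 ± 3.38, 17.3 ± 3.51 and 17.3 ± 4.50.

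Whether an inhibitor changed the response to 0.1 μM THZ531 was tested as an interaction, the difference between the combination and the sum of both single changes on the log2 scale. With lapatinib, 7 of the 10 genes were called lower than the sum (32% of all genes) and TFDP2 higher (28.2%). With nilotinib, 8 genes were lower than the sum (31.2%) and TFDP2 was higher (25.6%). For E2F7 the single changes added up to 0.08 with lapatinib, while the combination had -2.88, an interaction of -2.96 ± 0.14 (SE, edgeR adjusted p = 2.06e-12). For E2F5 the sum was 0.30 and the combination -3.50, which gave -3.80 ± 0.26 (edgeR adjusted p = 2.94e-10). For E2F8 with nilotinib the sum was -0.44 and the combination -3.43, which gave -2.99 ± 0.18 (edgeR adjusted p = 4.54e-11).

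The interaction of E2F1 was -0.28 ± 0.14 with lapatinib (edgeR adjusted p = 0.0961) and -0.61 ± 0.14 with nilotinib (edgeR adjusted p = 0.00111), and the difference between both interactions was not tested. The lapatinib value ranged from -0.82 to -0.09 over the alternatives and passed with library size alone (-0.58) and mitochondrial scaling (-0.82). TFDP1 did not pass in either (0.13 and 0.09). With upper-quartile scaling its lapatinib interaction was 0.32 and passed as higher (edgeR adjusted p = 0.0412). The interaction of TFDP2 was 0.29 ± 0.10 with lapatinib (edgeR adjusted p = 0.0175) and 0.40 ± 0.10 with nilotinib (0.00188), but turned to -0.26 and -0.05 with mitochondrial scaling. The lapatinib value of TFDP2 no longer passed without replicate 1 of lapatinib or replicate 2 of the lapatinib combination.

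**Figure D3:**
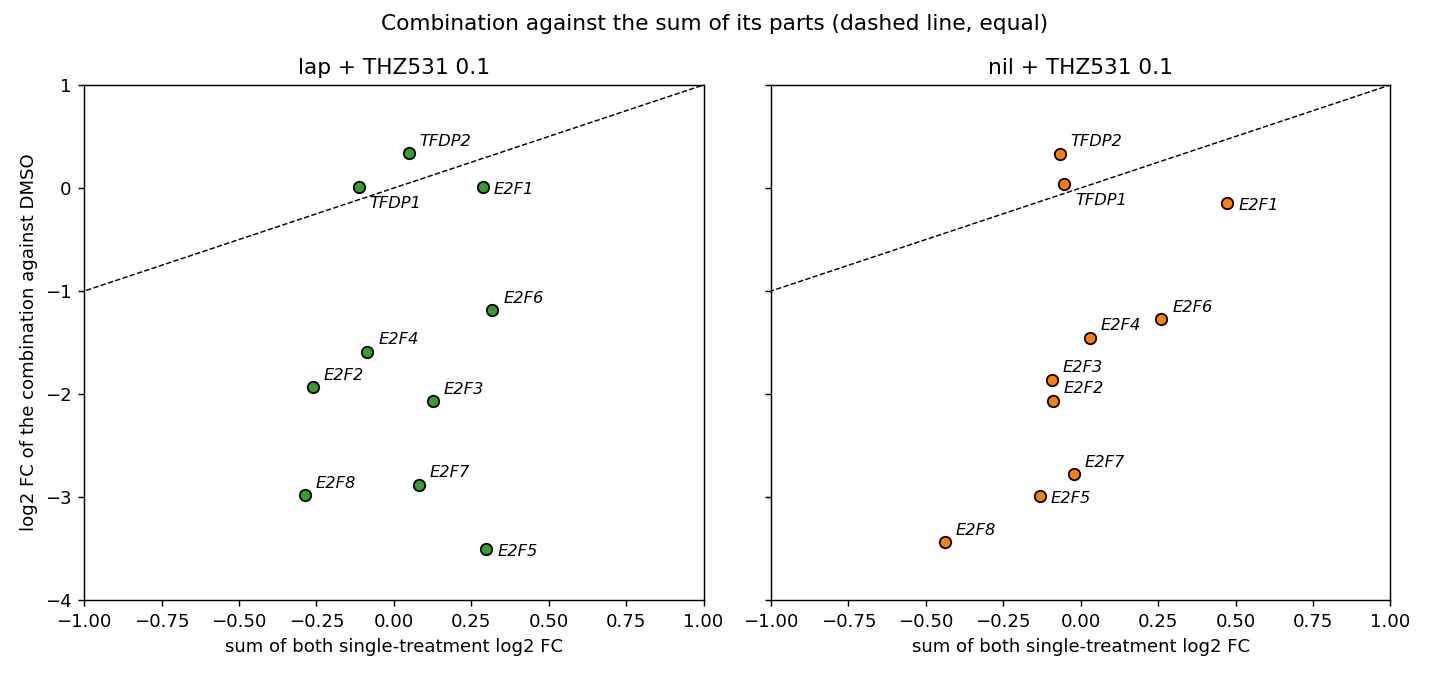
Log2 FC of each gene in a combination (vertical axis) against the sum of its log2 FC with the inhibitor and with 0.1 μM THZ531 (horizontal axis), for lapatinib (left) and nilotinib (right). On the dashed line both are equal; E2F2 to E2F8 lie at least 1 unit below it in both panels and TFDP1 lies close to it, while TFDP2 lies slightly above it, a place it loses with mitochondrial scaling.

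Against the single treatments, E2F2 to E2F8 were lower in every contrast of a combination, and E2F1 joined them in 3 of 4 with the main scaling, in 0 of 4 with upper-quartile scaling and in 4 of 4 with library size alone or mitochondrial scaling. The lapatinib combination gave, against lapatinib alone, 7 members lower (37.4% of all genes) and TFDP2 higher (34.9%), and the nilotinib combination against nilotinib 8 lower (36.7%) and TFDP2 higher (33.6%). The additional gene was E2F1, with a log2 FC of -0.35 (edgeR adjusted p = 0.00476). Against 0.1 μM THZ531, both combinations had 8 members lower, E2F1 included (36.1% and 35.6% of all genes), and TFDP2 higher (35% and 34.3%), and every call of TFDP2 as higher was lost with mitochondrial scaling. E2F1 had -0.26 there with lapatinib (edgeR adjusted p = 0.0269) and -0.41 with nilotinib (0.00131), and the first was lost without replicate 2 or 3 of either group, with size factors (adjusted p = 0.0575) and by DESeq2 (adjusted p = 0.0529). With upper-quartile scaling the values were -0.07 and -0.23 and neither passed. At 1 μM against 0.1 μM THZ531, 7 members were lower (35.9%) and E2F1, TFDP1 and TFDP2 higher (34.3%), which mitochondrial scaling turned for all 3 genes.

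The question of whether a combination resembled the higher dose of THZ531 was addressed by direct contrasts. The lapatinib combination had lower levels than 1 μM THZ531 for 5 genes (E2F1, E2F4, E2F5, E2F7 and TFDP1), where 16.1% of all genes were lower, and higher levels for 0 (12.8%). E2F5 differed most, with a log2 FC of -1.19 ± 0.23 (edgeR adjusted p = 0.000525), followed by E2F1 with -0.53 ± 0.10 (0.00044). The nilotinib combination was lower for 5 genes (E2F1, E2F5, E2F7, E2F8 and TFDP1; 13% of all genes) and higher for 0 (11.2%), with -0.68 ± 0.10 for E2F1 (edgeR adjusted p = 4.98e-05) and -0.62 ± 0.14 for E2F8 (0.00322). E2F3 did not pass in either contrast, and its intervals ran from -0.43 to 0.34 and from -0.21 to 0.55. Only 2 (E2F1 and E2F5) and 1 (E2F1) of these calls held where the fit contained the compared groups alone. With lapatinib, E2F4 also lost its call with size factors (edgeR adjusted p = 0.0501), mitochondrial scaling (0.0627) and no filter on low counts (0.0548). With nilotinib, E2F5 lost its call with mitochondrial scaling (edgeR adjusted p = 0.0513) and with counts halved (0.0815), as would apply if both ends of a pair had been counted. TFDP1 lost its call there with size factors (edgeR adjusted p = 0.0542) and mitochondrial scaling (0.143). E2F7 lost it with size factors (edgeR adjusted p = 0.0540), mitochondrial scaling (0.0699) and no filter on low counts (0.0516). For nilotinib 3 remained without replicate 1, 2 or 3 of that combination or replicate 1 of 1 μM THZ531, and E2F7 (log2 FC -0.29, edgeR adjusted p = 0.0429) lost its call in 13 of the 21 fits that each left out 1 library.

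No member passed between the combinations. The lapatinib combination against the nilotinib combination gave 0 calls by edgeR (0.736% of all genes lower and 0.73% higher) and 0 by DESeq2, with 1 member (E2F8) at an unadjusted p under 0.05. The intervals still allow differences, from 0.14 to 0.75 in log2 FC for E2F8 and from -1.03 to 0.00 for E2F5, while that of TFDP2 ran from -0.15 to 0.15. Lapatinib against nilotinib alone gave 0 calls as well (0.549% and 0.355% of all genes), with 1 member (E2F5) at an unadjusted p under 0.05 by edgeR.

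Across the 21 libraries the 7 genes that fell were close to each other in log2 CPM, with Pearson's r from 0.91 (E2F5 with E2F6) to 0.99 (E2F4 with E2F7). E2F1 had an r between -0.17 and 0.10 with each of these 7 and of 0.69 with TFDP1. The libraries fall into separate sets, which all these values share, so they are given as a description without a test. Correlations here and below were computed with the main scaling only. With mitochondrial scaling, E2F1 and TFDP1 were also called lower in the lapatinib combination (log2 FC -0.67 each). The gene most like each member over the 21 libraries, among 10904 genes whose mean log2 CPM reached 1, was MAPRE3 for E2F1 (r = 0.898), POM121 for E2F2 (0.992), ZNF473 for E2F3 (0.997), TWIST2 for E2F4 (0.997), ANKRD28 for E2F5 (0.994), BLCAP for E2F6 (0.993), ZNF146 for E2F7 (0.998), TOP3A for E2F8 (0.996), APH1A for TFDP1 (0.937) and BLTP1 for TFDP2 (0.966). Many genes shared the pattern of those that fell, with 2006 genes above an r of 0.95 for E2F7, whereas 19 genes passed this mark for TFDP2 and 0 for E2F1 and for TFDP1. The size of a gene's change between groups bears on such an r, and its part in these counts was not tested.

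Genes that fell and genes that did not with the main scaling were found at both short and long spans. A relation of span to change was not tested. E2F4, which fell, spans 6.76 kb on chromosome 16 (67192155 to 67198918, GRCh38) with 8 exons in its longest transcript, while TFDP2, which did not fall with the main scaling, spans 205 kb on chromosome 3 (141944428 to 142149544) with 13 exons. E2F1 spans 10.9 kb on chromosome 20 (33675477 to 33686385) with 7 exons, TFDP1 56.8 kb on chromosome 13 (113584688 to 113641473) with 12, and E2F3 91.8 kb on chromosome 6 (20401879 to 20493714) with 7. E2F7 spans 44.3 kb on chromosome 12 (77021251 to 77065569) with 13 exons, and E2F8 17.6 kb on chromosome 11 (19224063 to 19241655) with 13. Gene counts pool all transcripts, so fewer transcripts and shorter ones, which give fewer reads, cannot be told apart in them. From the same sequencing, the paper names E2F3 as a cell cycle gene affected by intronic polyadenylation, a premature transcript end that was not analysed here.

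The genes that hold E2Fs in check or are driven by them were described from 6 lists, whose counts stand beside 37.8%, 37.3% and 36.8% of all genes lower and 34.3%, 33.7% and 33.1% higher in the lapatinib combination, the nilotinib combination and 1 μM THZ531. All 3 pocket proteins fell in both combinations, of which RBL2 in the nilotinib combination did not pass with upper-quartile scaling. RBL1 (p107), itself an E2F target, had 50.9 to 56.6 CPM in DMSO and 20.9 to 23.2 CPM in the lapatinib combination, a log2 FC of -1.29 ± 0.08 (edgeR adjusted p = 7.84e-12). RB1, the retinoblastoma gene, had a log2 FC of -0.56 ± 0.09 and RBL2 (p130) of -0.49 ± 0.09 there. With 1 μM THZ531 only RBL1 passed (-1.02), while RB1 (0.12) and RBL2 (0.12) did not, although both were called lower with mitochondrial scaling and higher with upper-quartile scaling (0.33 and 0.32). RBL1 also fell with 0.1 μM THZ531 alone (log2 FC -0.31, edgeR adjusted p = 0.0174).

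Of the 7 genes of the MuvB core with B-MYB and FOXM1, which together drive late cell cycle genes, 4 fell and 1 rose in each combination, and 4 fell and 3 rose with 1 μM THZ531, and 0 rose in any of the 3 with mitochondrial scaling. LIN52 fell furthest in the lapatinib combination (log2 FC -2.45 ± 0.13, edgeR adjusted p = 1.07e-12), followed by LIN37 (-1.24). MYBL2, which encodes B-MYB and is a classical E2F target, rose from 248 to 254 CPM in DMSO to 337 to 369 CPM in the lapatinib combination (log2 FC 0.51 ± 0.05, edgeR adjusted p = 2.82e-08), a change that turned to -0.18 with mitochondrial scaling. FOXM1 had 0.18 and did not pass there.

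Of 7 tested G1 cyclins and kinases, 5 fell in each combination and 3 with 1 μM THZ531, and 0 rose (CCND2 was not tested). Mitochondrial scaling gave 7, 7 and 6 lower, whereas upper-quartile scaling gave 4, 4 and 3 lower with 0, 1 and 3 higher. CCNE2, a cyclin E and E2F target, went from 43.5 to 52.7 CPM in DMSO to 7.87 to 10.9 CPM in the lapatinib combination (log2 FC -2.42 ± 0.16, edgeR adjusted p = 3.42e-11). CCNE1 fell by 0.65 on the log2 scale, CCND1, the cyclin partner of CDK4 and CDK6, by 0.58, CDK6 by 0.83 and CCND3 by 0.16, while CDK4 (0.11) did not pass.

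Most of the CDK inhibitors rose in the combinations with the main scaling. In the lapatinib combination, 6 of 7 rose and 1 fell, in the nilotinib combination 5 rose and 1 fell, and with 1 μM THZ531 3 rose and 1 fell, while mitochondrial scaling left 3, 2 and 2 higher. CDKN1A, which encodes p21, rose from 13.8 to 15.1 CPM in DMSO to 29.9 to 39.0 CPM in the lapatinib combination (log2 FC 1.28 ± 0.09, edgeR adjusted p = 1.99e-10), and remained higher with mitochondrial scaling (0.59). It also rose with 0.1 μM THZ531 alone (log2 FC 0.59 ± 0.09, edgeR adjusted p = 0.0007). CDKN2A had 1.85 ± 0.18, CDKN1C 1.65 ± 0.57, CDKN1B 0.71 ± 0.09 (0.03 with mitochondrial scaling) and CDKN2C, the member that fell, -0.64 ± 0.07 in the lapatinib combination. CDKN1C was scarce, at 0.0596 to 0.276 CPM in DMSO and 0.156 to 0.667 CPM there, and its groups overlapped. Of 9 partners of E2F6, 4 fell and 2 rose in the lapatinib combination, 4 fell and 3 rose in the nilotinib combination, and 6 fell and 1 rose with 1 μM THZ531. The lapatinib combination was led by L3MBTL2 (-2.11 ± 0.09), a Polycomb-like protein, and PCGF6 (-0.75 ± 0.11), while RYBP (0.37) and RNF2 (0.43) were the 2 that rose, which turned to -0.32 and -0.26 with mitochondrial scaling. With 1 μM THZ531 RYBP had -0.23 and RNF2 -0.26, and neither passed.

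Genes of S phase that E2F is known to drive moved in both directions with the main scaling. Of 40, as counts beside the same shares of all genes, 23 fell and 12 rose in the lapatinib combination, 23 fell and 13 rose in the nilotinib combination, and 20 fell and 13 rose with 1 μM THZ531. The list median was -0.39, -0.35 and -0.28 in log2 FC, and with mitochondrial scaling the counts became 30 lower and 0 higher, 28 and 0, and 27 and 0. GINS1, a subunit of the replicative helicase, fell furthest (log2 FC -3.61 ± 0.13, edgeR adjusted p = 5.66e-15), followed by BRCA2, a homologous recombination gene (-2.61 ± 0.19). CCNA2, the S-phase cyclin A, went from 199 to 223 CPM in DMSO to 64.6 to 80.8 CPM in the lapatinib combination (log2 FC -1.60 ± 0.13). PCNA, the sliding clamp, had 0.95 ± 0.09 and TK1, a thymidine kinase, 0.73 ± 0.11, which were 0.26 and 0.04 with mitochondrial scaling and did not pass. Of 35 targets with a listed promoter, 25 held at least 1 of the 4 E2F motifs in the first promoter listed.

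**Figure D4:**
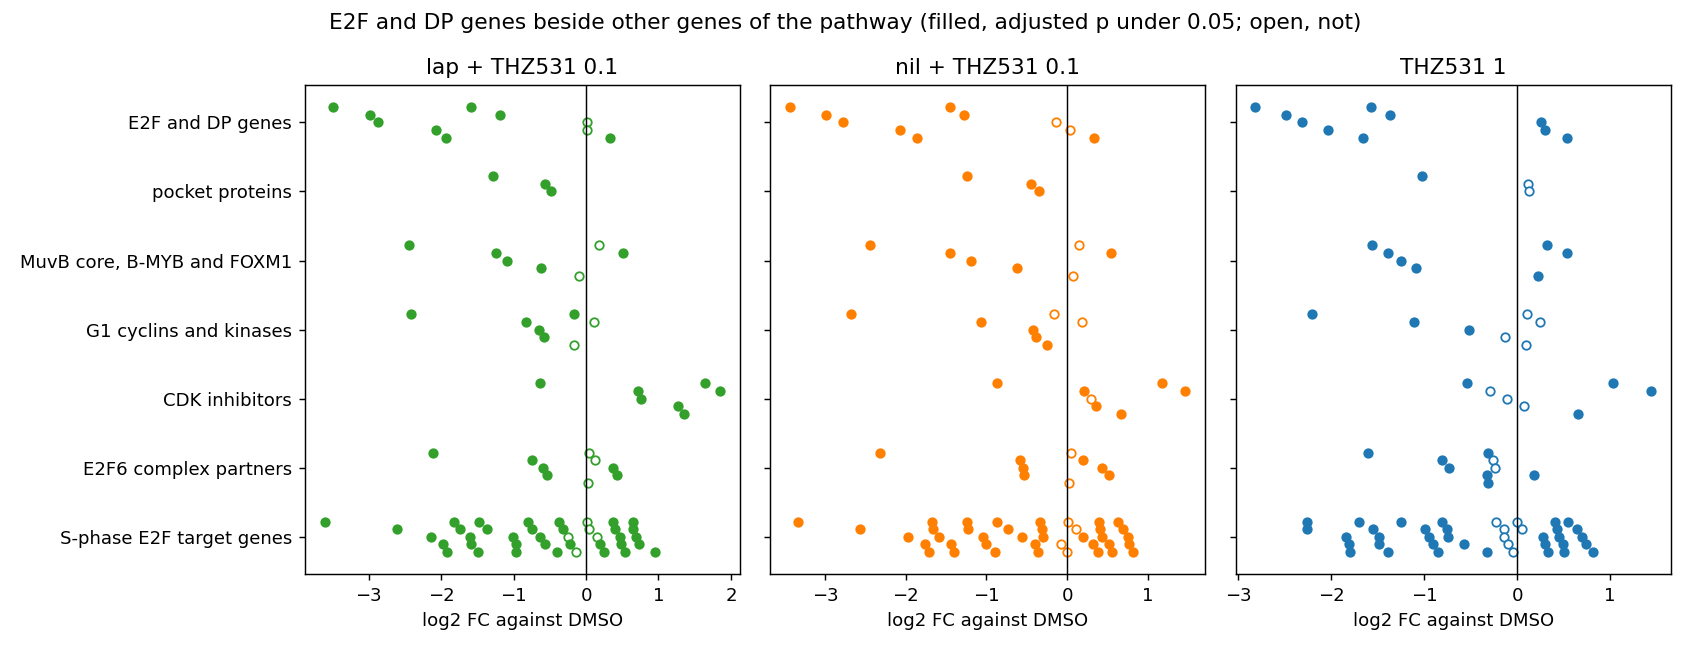
Log2 FC against DMSO (horizontal axis) of the E2F and DP genes and of the genes of 6 pathway lists (rows), in both combinations and with 1 μM THZ531. Each point is a gene, filled where the adjusted p was under 0.05, and height within a row has no meaning. CDK inhibitors lie mostly above 0 in both combinations (medians 1.28 and 0.36), while their median with 1 μM THZ531 is 0.07. With mitochondrial scaling 3, 2 and 2 of the 7 CDK inhibitors remain higher. The S-phase targets spread from -3.61 to 0.95 in the lapatinib combination, and all calls above 0 in that list were lost with mitochondrial scaling.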

How the data were processed

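RNA of Hs578T cells was sequenced by the authors as unstranded polyA-selected paired-end libraries (21, in 7 groups of 3). The authors aligned reads to GRCh38 with HISAT2 (2.1.0 in the submitters' processing notes) and deposited raw counts per gene from featureCounts, without normalization. Among counts of 1 to 20, 61.6% to 66.4% were even, so both ends of a pair may have been counted. Of 28395 NCBI gene identifiers, 27745 matched a symbol in RefSeq (GRCh38.p14). Transcript lengths came from GENCODE v44. The groups followed the sample labels, and 0 sample columns were left unused.

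Counts were filtered with filterByExpr (16036 genes), scaled by TMM and tested in R 4.3.3 with edgeR 4.0.16 (glmQLFit, glmQLFTest; 1 mean per group; 17 contrasts; Benjamini-Hochberg over all genes tested). Genes were called at an adjusted p under 0.05, and as strong with a log2 FC beyond 1. The study's own choice, DESeq2 (1.42.0 here), was an alternative. CPM are after TMM, with a prior count of 2 on the log2 scale. Total counts were 97612207 to 112229052, and intervals cover the spread between libraries.

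The fit was tested on simulated counts, with 90 genes changed by a log2 fold of 1 and 110 by 2, in the lapatinib combination only. Against DMSO it found 90 and 110 of these and called 8 unchanged genes. In the lapatinib interaction it found 76 and 110 and called 13. All other genes were held unchanged, so the simulation cannot show how the scaling behaves where 37.8% of all genes are called lower. The genes and lists were chosen with earlier results of these data known. Named were all 10 members, RB1, RBL1, RBL2, CCND1, CCNE1, CCNE2, CDKN1A, MYBL2, FOXM1, CCNA2, the 2 lowest and 2 highest changes of each list in the lapatinib combination and the gene most like each member. Protein sequences and intronic polyadenylation were not analysed here.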

Additional observations from a re-analysis of the deposited data

Results flagged for a closer look

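For the genes below, the change with 0.1 μM THZ531 differed with and without a tyrosine kinase inhibitor, by edgeR's interaction test over all genes. With lapatinib the difference in log2 FC was -1.67 for E2F2, -2.20 for E2F3, -1.50 for E2F4, -3.80 for E2F5, -1.50 for E2F6, -2.96 for E2F7 and -2.70 for E2F8. TFDP2 had 0.29, which turned to -0.26 with mitochondrial scaling. With nilotinib it was -1.97 for E2F2, -1.77 for E2F3, -1.48 for E2F4, -2.85 for E2F5, -1.54 for E2F6, -2.75 for E2F7 and -2.99 for E2F8. E2F1 had -0.61, and TFDP2 had 0.40, which turned to -0.05 with mitochondrial scaling. Groups of 3 are too small to look for single libraries that stand apart.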

How the results depend on the processing

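The falls of E2F2 to E2F8 against DMSO passed in each of 10 alternatives and 21 fits without 1 library. The other results depended mostly on scaling. Sign changes of values that passed in neither fit were not counted as reversals. With library size alone, members called higher than DMSO numbered 0, 0 and 1 (lapatinib combination, nilotinib combination, 1 μM THZ531), and with mitochondrial scaling 0, 0 and 0. Both scalings also gave 0 higher in the combinations against each single treatment, at 1 μM against 0.1 μM THZ531, and in both interactions. Upper-quartile scaling gave 2 higher for the lapatinib combination against lapatinib, for either combination against 0.1 μM THZ531 and for the lapatinib interaction. The gene added to TFDP2 was TFDP1 each time. The fit of the compared groups alone gave 1 higher for 0.1 μM THZ531 against DMSO. Against 1 μM THZ531, that fit left 2 members lower for the lapatinib and 1 for the nilotinib combination, where size factors left 3 and mitochondrial scaling 2. DESeq2 called 1 higher (E2F6) for the lapatinib combination. Leaving out 1 library gave 0 to 1 higher there (1 without replicate 3 of either group), 3 to 5 lower for the nilotinib combination and 0 to 1 higher in the lapatinib interaction.

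Reversed against DMSO were E2F1 (-0.32 with library size, -0.67 with mitochondrial scaling), TFDP1 (-0.32, -0.67) and, with the latter scaling, TFDP2 (-0.35) in the lapatinib combination, TFDP1 (-0.26, -0.58) and TFDP2 (-0.29) in the nilotinib combination, and at 1 μM THZ531 TFDP1 (-0.23) and TFDP2 (-0.000983 with library size, -0.29). Against lapatinib these were TFDP1 (-0.26, -0.47) and TFDP2 (-0.0248, -0.24), and against nilotinib TFDP1 (-0.24, -0.40) and TFDP2 (-0.029). Against 0.1 μM THZ531 they were TFDP1 (-0.23, -0.62) and TFDP2 (-0.37) with lapatinib, TFDP1 (-0.52) and TFDP2 (-0.31) with nilotinib, and E2F1 (-0.27), TFDP1 (-0.18) and TFDP2 (-0.31) at 1 μM. The TFDP2 interactions reversed to -0.00889 and -0.26 with lapatinib and to -0.052 with nilotinib. Single values without a stated scaling are with mitochondrial scaling. Why the scalings differ was not tested.

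Over all 6 pathway lists, mitochondrial scaling left 3, 2 and 2 genes higher, with 0, 0 and 0 of the S-phase targets. Members keeping their place in the order by level numbered 1 with the shortest and 5 with the median mRNA length. Replicate numbers did not pair the libraries consistently. Same-numbered libraries deviated together with a mean r of 0.15 (-0.83 to 0.89), against -0.07 for different numbers. Of 63 same-numbered pairs, 36 had an r over 0.1, and 8 of 21 libraries were closest to their own number. With the replicate number as a block, 4 members were lower in the nilotinib combination than at 1 μM THZ531, since E2F7 lost its call (adjusted p = 0.0513, edgeR), and all 7 falls passed.

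Depth limits E2F5 most, with 12 to 47 counts per library where it was low. Having 3 libraries a group limits all p-values.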
